A study of Mus musculus with 10 samples.

Results

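Transcript levels of 7 genes were followed in the Ts65Dn hippocampus, namely the carbonyl reductase genes Cbr1, Cbr3 and Cbr4 and 4 genes for the insertion of tail-anchored proteins into membranes, Wrb, Camlg, Asna1 and Get4. They were taken by gene symbol from 19938 measured genes, with the brightest transcript cluster (the set of probes that the array combines into 1 value) for each gene. Each of the 7 had a single transcript cluster of its own, and no transcript cluster was shared with another symbol. Cbr1, Cbr3 and Wrb lie in the segment of mouse chromosome 16 (Mmu16) that Ts65Dn mice carry in 3 copies. Cbr4, Camlg, Asna1 and Get4 lie on other chromosomes and are in 2 copies in both genotypes.

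Ts65Dn is a mouse model of Down syndrome in which a freely segregating extra chromosome adds a copy of Mmu16 genes homologous to human chromosome 21, together with a segment next to the centromere of mouse chromosome 17 that has no such homology. Hippocampal RNA of 5 male Ts65Dn mice and of 5 male control littermates, all 16 weeks old, was hybridised to Affymetrix Mouse Gene ST arrays, with 1 array per mouse. Both hippocampi of an animal gave 1 RNA, and both genotypes had the F1 hybrid B6C3B background, in which the C3B parent is a C3H/HeH congenic line with the BALB/c allele of Pde6b. No treatment was named. The arrays measured whole tissue, so that fewer cells of a type and less RNA per cell cannot be told apart. The question was whether the genes in 3 copies were transcribed at a higher level, and whether their partners in 2 copies differed as well.

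Carbonyl reductases are NADPH-dependent enzymes of the short-chain dehydrogenase/reductase family. CBR1 reduces prostaglandins, quinones, anthracycline drugs and reactive aldehydes, CBR3 is its close relative with a narrower set of substrates, and CBR4 is a mitochondrial enzyme that takes part in fatty acid synthesis. Tail-anchored proteins hold to a membrane by a single segment at their C-terminus, so they leave the ribosome before they can be inserted, and the guided entry of tail-anchored proteins (GET) pathway delivers them to the endoplasmic reticulum. GET4 belongs to the complex that hands such a protein over, ASNA1 (GET3) is the ATPase that carries it through the cytosol, and WRB (GET1) and CAMLG are the receptor in the endoplasmic reticulum membrane. Many SNARE proteins of synaptic vesicle traffic are tail-anchored.

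The promoters of the genes in 3 copies are shown because the differences between genotypes were found among these members. Each window runs from 250 bases before to 50 bases after the annotated start on the plus strand (RefSeq, GRCm38.p6), so that base 251 is the first transcribed one. The Cbr1 window is chr16:93607587-93607886, that of Cbr3 is chr16:93682969-93683268 and that of Wrb is chr16:96145150-96145449. Capitals mark the motif CCAAT in Cbr1, 2 overlapping copies of the GC box GGGCGG in Cbr3, and in Wrb the NRF1 element and the antioxidant response element TGACNNNGC.
Cbr1: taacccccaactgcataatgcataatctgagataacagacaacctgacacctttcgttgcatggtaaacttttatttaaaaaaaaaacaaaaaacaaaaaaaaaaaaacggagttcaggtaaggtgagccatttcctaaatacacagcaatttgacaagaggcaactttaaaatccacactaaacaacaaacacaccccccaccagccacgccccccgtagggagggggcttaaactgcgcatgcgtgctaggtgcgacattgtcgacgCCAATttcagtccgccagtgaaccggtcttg
Cbr3: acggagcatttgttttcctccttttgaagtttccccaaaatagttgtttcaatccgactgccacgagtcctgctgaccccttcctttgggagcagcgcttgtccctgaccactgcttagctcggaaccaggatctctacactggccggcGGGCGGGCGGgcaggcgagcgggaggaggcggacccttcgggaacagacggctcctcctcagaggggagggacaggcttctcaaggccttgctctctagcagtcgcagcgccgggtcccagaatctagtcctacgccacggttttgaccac
Wrb: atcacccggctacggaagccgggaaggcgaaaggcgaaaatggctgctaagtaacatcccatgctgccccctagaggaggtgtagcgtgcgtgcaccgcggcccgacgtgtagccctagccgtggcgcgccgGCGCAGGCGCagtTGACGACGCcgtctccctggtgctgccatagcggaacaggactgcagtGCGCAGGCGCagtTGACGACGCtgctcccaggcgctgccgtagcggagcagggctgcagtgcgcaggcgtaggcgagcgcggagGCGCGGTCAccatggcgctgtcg

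Each window was searched on both strands, and the motifs were chosen with the sequences in view. CCAAT was found in 37.4% of all 32851 RefSeq windows of this length and GGGCGG in 35.7%. TGACNNNGC was found in 12.4% of windows and the NRF1 element in 4.60%. The Wrb window held TGACNNNGC at bases 146, 207 and 278, the last on the minus strand, and the NRF1 element at bases 133 and 194. No TATAAA lay in the 3 windows, and 13.6% of all windows held it. The Wrb window repeated a stretch of 22 bases exactly, gcgcaggcgcagttgacgacgc, at bases 133 and 194, so that both elements occur 2 times at a spacing of 61 bases. A direct repeat of at least 22 bases was found in 1.09% of windows. Base composition also differed, with 44.0% G and C in Cbr1, more than in 19.2% of windows, 60.0% in Cbr3, more than in 70.5%, and 68.3% in Wrb, more than in 88.0%. Of the members in 2 copies, Asna1 held CCAAT and CACGTG, the first of 2 Get4 windows held GGGCGG and CACGTG and the second CACGTG, and the Cbr4 window held none of the motifs searched. Camlg was not searched here. These matches describe letters in the windows and no binding was measured.

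Medians of the 10 arrays lay between 7.38 and 7.41 on the log2 scale, the mean correlation of an array with the others was 0.995 to 0.997, and no arrays held identical values. None of the genes on the lists of neuronal, glial, vascular, choroid plexus, thalamic and cortical markers passed the test, where 0.281% of all genes did. Of the 8 markers of hippocampal neurons, 3 had a difference above 0, and the median was -0.05. The lowest was Wfs1, with -0.35 ± 0.07 (log2, SE; limma, adjusted p = 0.0925). Wfs1 was the only one of the 8 with all Ts65Dn mice below all controls, as was so for 0.346% of all genes. Differences were above 0 for 8 of 8 choroid plexus markers, with a median of 0.24, among them the Mmu16 gene Clic6, and for 0 of 5 oligodendrocyte markers, with a median of -0.05. They were above 0 for 1 of 5 thalamus and cortex markers (median -0.10) and 1 of 6 markers of inhibitory neurons (median -0.07). The same was so for 3 of 6 astrocyte (median -0.02), 5 of 6 microglia (median 0.01) and 5 of 6 endothelium markers (median 0.05). Markers of hippocampal neurons were bright, with list means of at least 10.75 in all Ts65Dn mice and of at least 10.95 in all control mice. Choroid plexus markers varied between animals of both genotypes, from 7.03 to 10.15 in Ts65Dn and from 7.12 to 9.86 in control mice, with both genotypes spread over nearly the same range. Their part in the results below was not tested.

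Among the 7 genes, Wrb and Cbr1 were higher in the Ts65Dn hippocampus (limma, adjusted p = 0.000864 and 0.0321), where 0.316% of all transcript clusters, 0.281% of all genes and 33.1% of the 127 measured Mmu16 genes passed. Cbr3 had a difference of 1.32-fold with a wider spread between mice and did not pass (limma, adjusted p = 0.675). The 4 genes in 2 copies all stayed within 1.04-fold of their control level and none passed. For Wrb and Cbr1 all Ts65Dn mice were above all controls, which was so for 0.532% of all genes and for 40.9% of the Mmu16 genes.

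**Figure D1:**
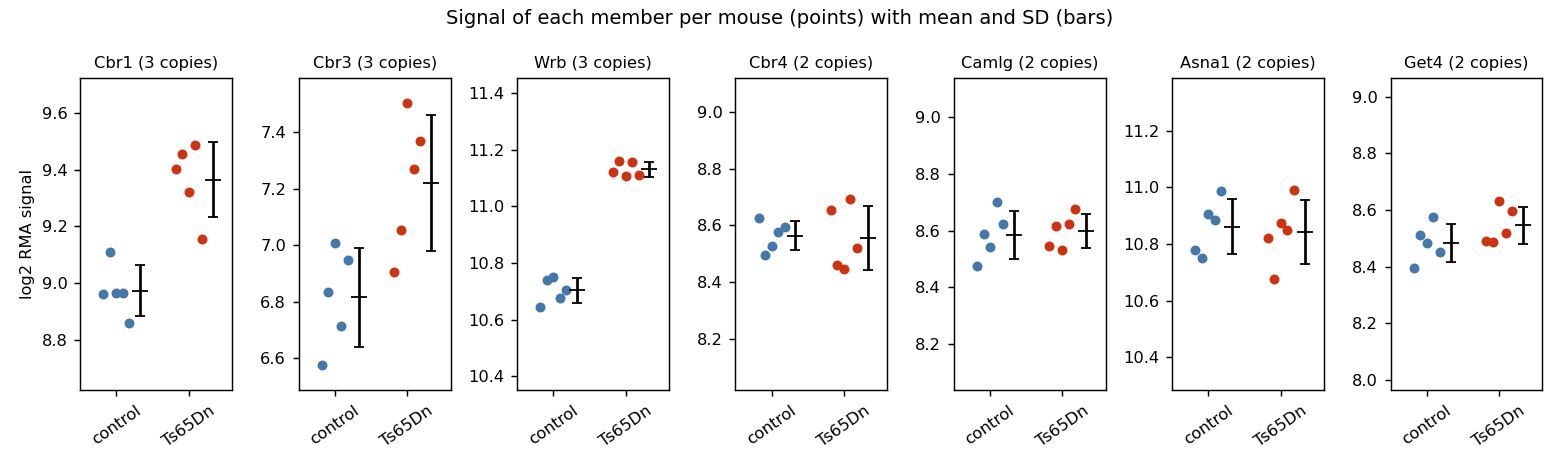
Log2 signal (y axis) of each mouse for the 7 genes, with Ts65Dn and control mice side by side (n = 5 per genotype) and the mean and SD of each genotype. The genotypes do not overlap for Wrb and Cbr1, overlap in 1 Ts65Dn mouse for Cbr3, and overlap for Cbr4, Camlg, Asna1 and Get4.

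Cbr1 (chromosome 16, 93607837 to 93610349) had log2 signals of 9.40, 9.46, 9.32, 9.49 and 9.16 in Ts65Dn mice 1 to 5 and of 8.96, 9.11, 8.96, 8.96 and 8.86 in control mice 1 to 5. The lowest Ts65Dn mouse, number 5, lay 0.0448 above the highest control, number 2, so the genotypes were separated by a narrow gap. Means were 9.36 ± 0.133 and 8.97 ± 0.0901 (SD, n = 5 per genotype), a rise of 0.39 ± 0.07 (log2, SE) or 1.31-fold, with a 95% interval from 1.19 to 1.45. The upper end of this interval stays below the 1.5-fold ratio of gene copies. The median of the 53 Mmu16 genes with a mean log2 signal of at least 8 was below it too, at 1.32-fold. The size of the rise of Cbr1 was stable when mice were left out in turn, at 0.36 to 0.45, whereas the call was not. Without Ts65Dn mouse 1, 2, 3 or 4 the limma adjusted p was 0.109, 0.102, 0.0745 or 0.0965. Without control mouse 1, 3, 4 or 5 it was 0.104, 0.112, 0.104 or 0.0976. It passed without Ts65Dn mouse 5 (0.00689) and without control mouse 2 (0.0344), the mice on either side of the gap.

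Cbr3 lies 75.4 kb beyond the start of Cbr1 on the same strand (chromosome 16, 93683219 to 93690991). Its log2 signals were 6.91, 7.05, 7.50, 7.27 and 7.37 in Ts65Dn mice and 6.58, 6.83, 7.01, 6.71 and 6.95 in control mice. Here 4 of 5 Ts65Dn mice lay above all controls, and Ts65Dn mouse 1 lay below the highest control, number 3. Means were 7.22 ± 0.240 and 6.82 ± 0.175 (SD, n = 5 per genotype), a difference of 0.40 ± 0.12 (log2, SE) or 1.32-fold, with a 95% interval from 1.11 to 1.58 that includes 1.5. The unadjusted limma p was 0.0047, which ranked 136 of 19938 genes, and 3.33% of all genes had an unadjusted p under 0.05. Cbr3 was dimmer than the other members, with a mean signal above 44.9% of genes against 75.8% for Cbr1, and its SD within genotypes was above that of 95.5% of genes. With each mouse left out in turn the difference was 0.33 to 0.48 and passed in 0 of 10 fits.

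Cbr4 (chromosome 8, 61487734 to 61503500), the mitochondrial member in 2 copies, had log2 signals of 8.66, 8.46, 8.44, 8.69 and 8.52 in Ts65Dn mice and of 8.63, 8.50, 8.53, 8.58 and 8.59 in control mice. The highest and the lowest of these values were both from Ts65Dn mice. The difference was -0.01 ± 0.05 (log2, SE; 0.994-fold, 95% interval 0.915 to 1.08, n = 5 per genotype), with means of 8.55 ± 0.113 and 8.56 ± 0.0519 (SD). The interval leaves out a rise of the size measured for Cbr1. The sign of this small difference turned with array weights.

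Wrb (chromosome 16, 96145400 to 96157852), the receptor subunit in 3 copies, had log2 signals of 11.12, 11.16, 11.11, 11.16 and 11.11 in Ts65Dn mice and of 10.64, 10.74, 10.75, 10.67 and 10.71 in control mice. All Ts65Dn mice lay within 0.0522 of each other, and the lowest of them was 0.358 above the highest control. Means were 11.13 ± 0.0256 and 10.70 ± 0.0446 (SD, n = 5 per genotype), a rise of 0.43 ± 0.03 (log2, SE) or 1.35-fold, with a 95% interval from 1.28 to 1.42 that stays below 1.5. Its p was the smallest of all 23410 transcript clusters tested, although by fold change it ranked 24 of the 127 Mmu16 genes. The SD of Wrb within genotypes was above that of only 3.98% of genes, and its mean signal was above that of 94.2%. Leaving out each mouse in turn gave a rise of 0.41 to 0.44 that passed in 10 of 10 fits, and Wrb ranked 1 to 3 by p in these fits.

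Camlg (chromosome 13, 55623005 to 55632416), the partner of WRB in the receptor, had log2 signals of 8.54, 8.62, 8.53, 8.62 and 8.68 in Ts65Dn mice and of 8.47, 8.59, 8.54, 8.70 and 8.62 in control mice. The highest and the lowest value were both from control mice, and the genotypes overlapped. The difference was 0.01 ± 0.05 (log2, SE; 1.01-fold, 95% interval 0.938 to 1.09, n = 5 per genotype). The 2 subunits of the receptor thus differed in their response to genotype, by the test given with the pairs of genes.

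Asna1 (chromosome 8, 85017929 to 85025287), the ATPase that binds the receptor, had log2 signals of 10.82, 10.68, 10.87, 10.85 and 10.99 in Ts65Dn mice and of 10.78, 10.75, 10.91, 10.88 and 10.99 in control mice. The values ran over nearly the same range in both genotypes, and mouse 5 was the highest in each. The difference was -0.02 ± 0.06 (log2, SE; 0.987-fold, 95% interval 0.897 to 1.09, n = 5 per genotype).

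Get4 (chromosome 5, 139252324 to 139270050), which acts upstream of ASNA1, had log2 signals of 8.49, 8.49, 8.63, 8.52 and 8.60 in Ts65Dn mice and of 8.40, 8.51, 8.48, 8.58 and 8.45 in control mice. Ts65Dn mice 3 and 5 were above all controls and the other Ts65Dn mice were within the control range. The difference was 0.06 ± 0.04 (log2, SE; 1.04-fold, upper end of the 95% interval 1.12, n = 5 per genotype), the largest among the members in 2 copies. The unadjusted limma p was 0.197 for Get4, 0.790 for Camlg, 0.768 for Asna1 and 0.871 for Cbr4.

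**Figure D2:**
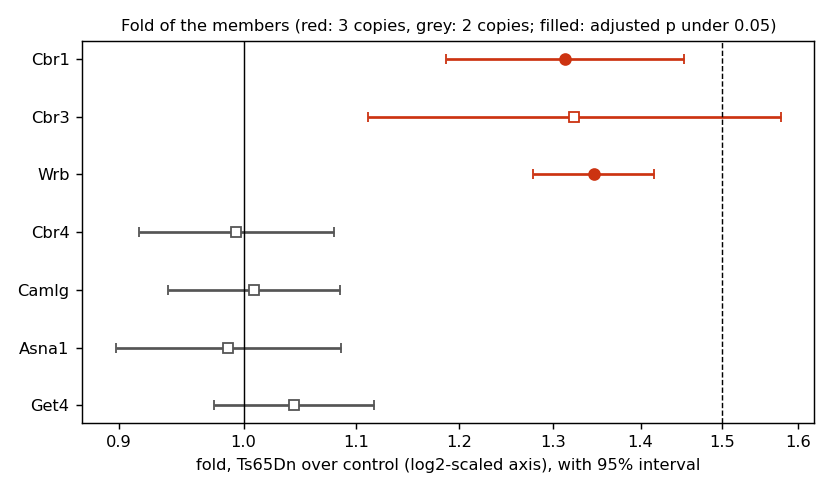
Fold (Ts65Dn over control, on a log2-scaled axis) of the 7 genes with its 95% interval (n = 5 per genotype). A solid line marks no difference and a dashed line the 1.5-fold ratio of gene copies. Wrb, Cbr3 and Cbr1 lie between 1.31 and 1.35, and the members in 2 copies lie between 0.987 and 1.04.

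Differences between fold changes were tested for 8 pairs of members by permuting the genotypes over the mice in every possible way (exact permutation test, two-sided, p adjusted over the 8 pairs, n = 5 per genotype). Their 95% intervals are not from this test but are t intervals with pooled variance, and they are not adjusted. Wrb rose more than each of its 3 partners in 2 copies, by 0.42 over Camlg, 0.45 over Asna1 and 0.37 over Get4 on the log2 scale. For each of these pairs the exact permutation p was 0.00794, the smallest that this test can give, and 0.0159 adjusted. All 3 tests share the Wrb values, so they are not independent of each other. Cbr1 rose more than Cbr4 by 0.40 (95% interval 0.21 to 0.60) with the same exact p. The difference between Cbr3 and Cbr4 was of the same size, 0.41 (95% interval 0.03 to 0.79), and did not pass after adjustment (exact permutation p = 0.0397, adjusted p = 0.0635). Without Ts65Dn mouse 1, the lowest for Cbr3, it was 0.52 and passed (exact permutation, adjusted p = 0.0159). It did not pass when any other mouse was left out, and over all of these tests the difference was 0.32 to 0.52.

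Among the 3 genes in 3 copies no difference between fold changes passed. The exact permutation p was 0.619 for Cbr1 against Wrb, 0.905 for Cbr3 against Wrb and 0.937 for Cbr1 against Cbr3. The intervals leave room for differences of some size, from -0.18 to 0.11 for Cbr1 minus Wrb, from -0.32 to 0.27 for Cbr3 minus Wrb and from -0.41 to 0.39 for Cbr1 minus Cbr3 (log2). The interval was narrowest for the pair that does not involve Cbr3.

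The rest of the GET pathway gave no call, where 0.281% of all genes passed. Of 3 further components, Bag6, a chaperone that sorts tail-anchored proteins, differed by 0.01 ± 0.04 and Sgta, which passes them to ASNA1, by -0.01 ± 0.05 (log2, SE), while Ubl4 had no transcript cluster of its own. The Oxa1 family and the ER membrane complex are another insertion route, to which WRB is related by structure. Their list, which also held Tmem208 that belongs to neither, had 12 of 13 genes measured, and 0 were called. The median difference of the 12 genes was 0.01, against -0.00281 over all genes. None had an unadjusted p under 0.05 (1.76% of all genes did as higher and 1.56% as lower). Emc8 had the smallest p of this list with 0.06 ± 0.03.

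The list of tail-anchored proteins held cargo of the pathway, but also mitochondrial proteins such as Tomm22 and Fis1 and the lipid-anchored SNARE Ykt6. It had 41 of 45 genes measured, and 0 were called, against 0.281% of all genes. The median difference of these genes was 0.02. Ube2j2, a ubiquitin-conjugating enzyme of the endoplasmic reticulum, had a difference of 0.13 ± 0.05 (log2, SE) and was the only one with an unadjusted p under 0.05 (limma, adjusted p = 1.00). The SNARE genes Stx18 and Stx8 followed, with 0.08 ± 0.04 and 0.10 ± 0.05.

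Enzymes that share chemistry with the carbonyl reductases gave no call either, beside the 0.281% of all genes that passed. The list of short-chain dehydrogenases and reductases had all 44 genes measured, with 0 called, 1 gene in each direction at an unadjusted p under 0.05 and a median difference of 0.04. Hsdl2, a peroxisomal member, was the higher one with 0.15 ± 0.06 and Dhrs9, a retinol dehydrogenase, the lower one with -0.12 ± 0.05 (log2, SE). Dhrs9 was dim, with a mean log2 signal of 5.47, where the 25th percentile over all genes was 5.74. The aldo-keto and other carbonyl-reducing enzymes had 18 of 20 genes measured, with 0 called and a median of 0.03. Akr1b10 (0.16 ± 0.07) had an unadjusted p under 0.05, and Akr1c18, a steroid-reducing enzyme, differed by 0.23 ± 0.11.

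Mitochondrial fatty acid synthesis, in which CBR4 takes part, had 9 of 9 genes measured and 0 called, with a median difference of 0.01. Oxsm, its condensing enzyme, had 0.12 ± 0.06 and Mecr, its last reductase, -0.06 ± 0.07 (log2, SE). Targets of the oxidative stress factor Nrf2, among which carbonyl reductases are counted, had 19 of 20 genes measured and 0 called, with a median of -0.00395. Gclc, for glutathione synthesis, had -0.09 ± 0.05, Hmox1, heme oxygenase, -0.10 ± 0.05 and Srxn1, sulfiredoxin, 0.09 ± 0.05. Over the 7 lists, 0 of 142 distinct genes passed, which is near the share over all genes (0.281%). Of the 142 genes, 4 had an unadjusted p under 0.05 (limma), or 2.82%, where 3.33% of all genes did.

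**Figure D3:**
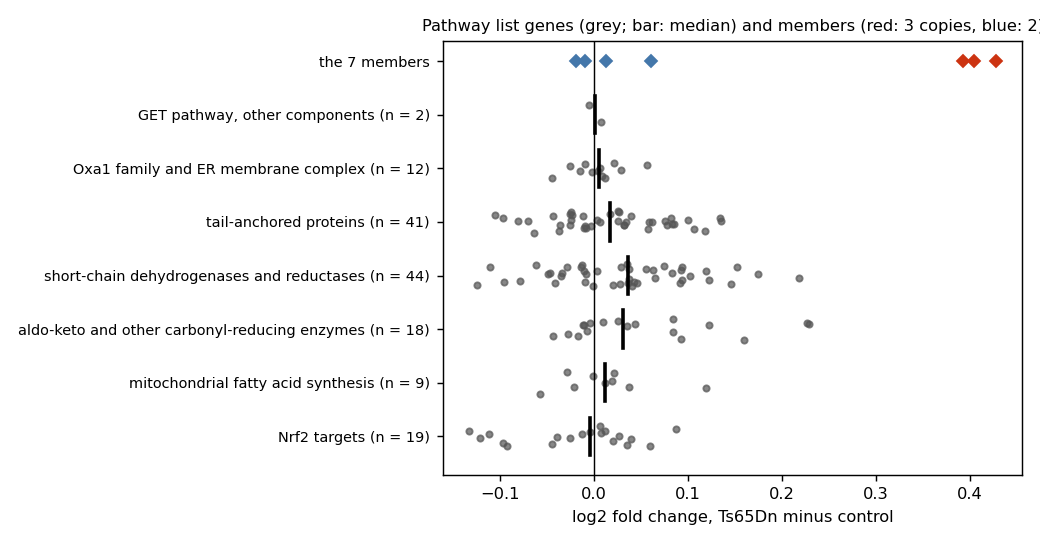
Log2 fold change (Ts65Dn minus control, n = 5 per genotype) of each measured gene of the 7 pathway lists, with 1 point per gene, the median of each list, and the members for comparison. No listed gene passed the test, where 0.281% of all genes did, and the list medians lie between -0.00395 and 0.04.

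The chromosomal surroundings of the members in 3 copies were mixed, with 5 of 12 listed neighbours called, against 33.1% of the Mmu16 genes. Around Cbr1 and Cbr3, Morc3, a chromatin-associated ATPase, rose by 0.55 ± 0.06 (1.46-fold, limma, adjusted p = 0.00184) and Dop1b, a gene of membrane traffic, by 0.41 ± 0.05 (1.33-fold, adjusted p = 0.00296). Setd4, whose start is 24.4 kb before that of Cbr1, had 0.10 ± 0.05, Runx1 0.15 ± 0.07 and Chaf1b 0.00 ± 0.06 (log2, SE), and none of these passed. The mean log2 signals of these 3 genes lay between 5.80 and 6.60. Cldn14, a claudin gene, had 0.03 ± 0.07 and did not pass either, at a signal of 7.09, close to that of Cbr3 (7.02). The part of signal in this was not tested.

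Near Wrb, the bromodomain gene Brwd1 rose by 0.51 ± 0.07 (1.42-fold, limma, adjusted p = 0.00714), the transcription factor gene Ets2 by 0.37 ± 0.05 (1.29-fold, adjusted p = 0.00364) and Psmg1, a proteasome assembly chaperone, by 0.36 ± 0.06 (1.28-fold, adjusted p = 0.0307). The call of Psmg1 was lost in 8 of the 10 fits without 1 mouse (Ts65Dn mouse 1, 2, 3 or 4, control mouse 1, 3, 4 or 5), with adjusted p of 0.0794 to 0.106 and a rise of 0.33 to 0.37. Both direct neighbours of Wrb differed little. Hmgn1, a nucleosome-binding protein whose start is 23.8 kb before that of Wrb, had 0.07 ± 0.07 at a mean log2 signal of 8.01. Lca5l, which starts 13.0 kb after the start of Wrb, had 0.01 ± 0.03 at a signal of 5.18, and Sh3bgr beyond it had 0.04 ± 0.05 at a signal of 5.61. B3galt5, the next measured gene, was not on the list. It starts 90.4 kb after the start of Wrb and was higher by 0.37 ± 0.07 (1.29-fold, limma, adjusted p = 0.0494). Of the listed genes Ets2 starts farthest from Wrb, at base 95702407 against 96145400.

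**Figure D4:**
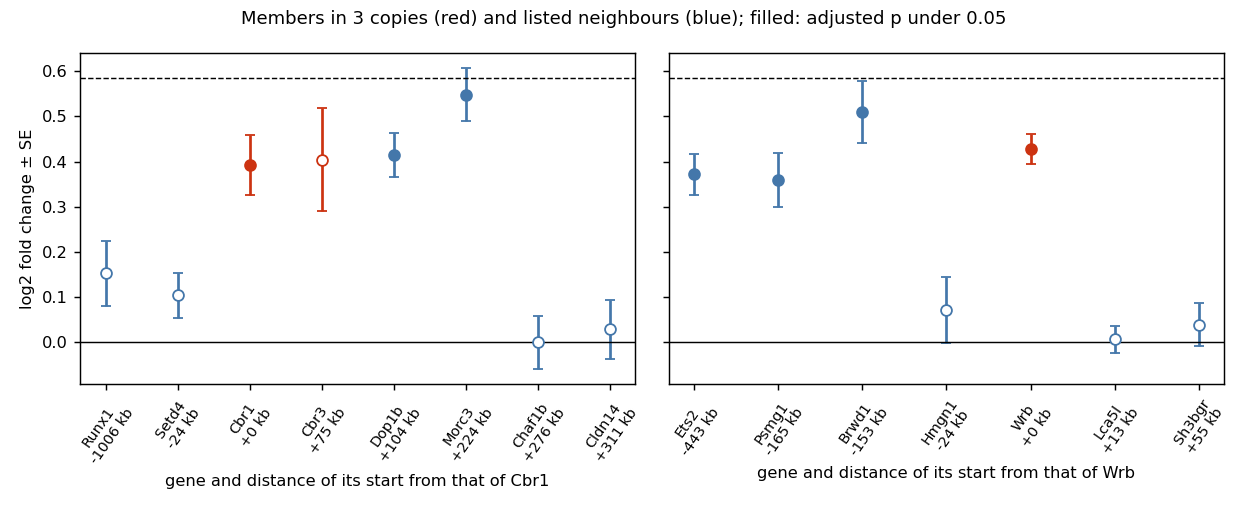
Difference between the genotypes (log2, Ts65Dn minus control, bars SE, n = 5 per genotype) for the 12 listed neighbours and the 3 members in 3 copies, in gene order, with filled points past the threshold and a dashed line at the 1.5-fold ratio of gene copies. Genes past the threshold, among them Wrb and Cbr1, stand next to genes near 0 such as Hmgn1 and Lca5l. Measured genes that were not listed, such as B3galt5, are not drawn.

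Within the Mmu16 segment the members in 3 copies were of ordinary size. The 42 genes that passed had a median rise of 1.33-fold, between 1.18 and 1.57, and by fold change Wrb ranked 24, Cbr3 32 and Cbr1 35 of 127. By p they ranked 1, 56 and 37. Calls went with signal on this segment, since 37 of 53 genes with a mean log2 signal of at least 8 passed (median 1.32-fold) and 2 of 16 genes with a signal within 0.5 of that of Cbr3 passed (median 1.24-fold).

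**Figure D5:**
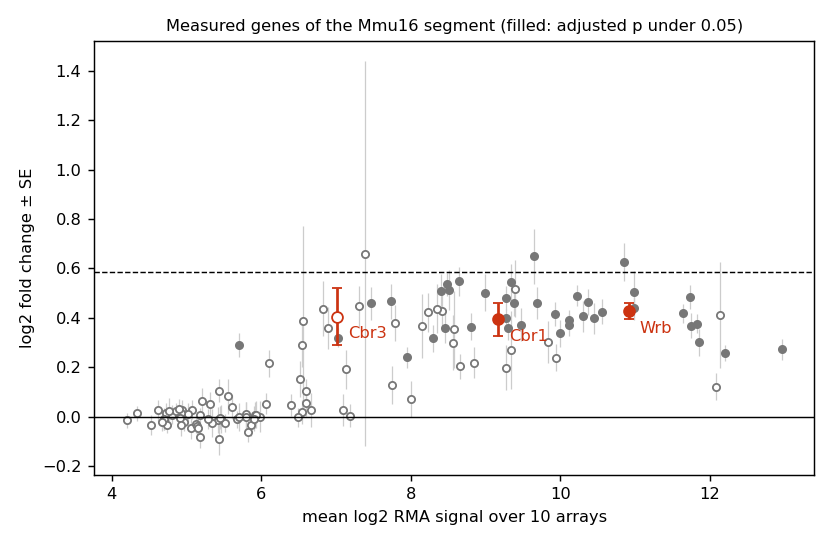
Difference between the genotypes (log2, Ts65Dn minus control, bars SE, n = 5 per genotype) for the 127 measured Mmu16 genes against their mean log2 signal, with filled points past the threshold and a dashed line at the 1.5-fold ratio of gene copies. Wrb stands at a signal of 10.92 with a short error bar, and Cbr3 at 7.02 with a long one.

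Across the 10 mice, with the genotype means removed, the genes most like each member in pattern were found among the brighter part of all genes (9968 compared for Cbr1 and Wrb, 9969 for Cbr3). For Cbr1 they were Map9 (r = 0.988) and Smarcd2 (r = 0.981), for Cbr3 Pam (r = 0.946) and Lonp2 (r = 0.942), and for Wrb Mtap (r = 0.932) and Sumo3 (r = 0.930). They are the highest of many correlations over 10 points and are given as a description. Mice of the same replicate number in both genotypes also correlated, with r up to 0.507, so the 10 points may not be independent. Between members the strongest of 21 correlations was that of Cbr1 and Asna1, with Pearson's r = -0.81 and Spearman's rho = -0.76, and r = -0.66 without the 2 mice farthest from the median of Cbr1. Cbr1 and Cbr3, neighbours on the chromosome, had r = -0.39.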

How the data were processed

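The authors deposited RMA values on the log2 scale, with background corrected, arrays equalised and probes summarised per transcript cluster. RMA, limma and mm10 are named in the submitters' processing notes, and versions are not given in the sources used here. RMA compresses ratios of dim genes. For arrays, the number of mice, 5 per genotype, limits the precision. Each of the 10 columns belonged to 1 mouse by its labels, which call each a biological replicate, and p-values measure the spread between these mice.

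Of 35556 rows, 23410 had at least 1 gene symbol in the platform annotation and were tested. Exactly 1 symbol was given for 21789 of these, several for 1621, and 12146 rows had none. Gene numbers matched 21698 to RefSeq (GRCm38), and 91 were not matched. The comparison of genotypes used limma 3.58.1 (lmFit, eBayes; R 4.3.3), genotype being the only term, two-sided, with Benjamini-Hochberg adjustment over all tested rows, and called at adjusted p 0.05. Adjusted p-values are from this fit unless a permutation test is named. Counts of genes use the transcript cluster with the highest mean of each gene. The exact permutation tests were written with numpy 2.4.6 (Python 3.11.15), the intervals of the pairs used scipy 1.17.1, and plots matplotlib 3.10.9.

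The members and the lists were chosen with earlier results of these data known, so lists are described by counts and medians alone. Named are all members, each listed gene that passed, up to 3 genes of smallest p per pathway list, and the listed Mmu16 neighbours. Also named are B3galt5 near Wrb and the 2 genes most correlated with each member in 3 copies, among genes at or above the median signal.

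Alternatives were the rows tested, a filter at a mean log2 signal of 6, median centring, quantile normalization, trend and robust variance, array weights, thresholds of 0.1 and 0.01, the mean of all transcript clusters of a gene, the replicate number as a block, leaving out each array, and a rank method over all 25 array pairs written anew after the study's FCROS, which may differ from that program. On simulated data of 23410 rows with 200 changed, the fit of 5 against 5 arrays called 166, of which 8.43% were false. Recovery was 95% at a change of 0.6 and 57% at 0.3 (log2).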

Additional observations from a re-analysis of the deposited data

Results flagged for a closer look

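Among 94 groups of 5 mice, for the members, their pairs and the other named genes, 4 had a mouse far from the rest, by a gap of more than 0.71 of the range of the group. Chance marks about 5% of groups. In Ts65Dn mice the difference between Wrb and Camlg was lowest in mouse 5, with a gap of 0.718 of the range. In control mice the difference between Wrb and Get4 was lowest in mouse 4, with a gap of 0.790. The lowest Ts65Dn value of Cldn14, a claudin gene near Cbr3, stood off by 0.715, and the lowest control value of Srxn1 by 0.760.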

How the results depend on the processing

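The 74 called transcript clusters (0.316% of those tested) became 41 at adjusted p 0.01 and 1255 by the rank method, and 51 to 63 without 1 array. The rank method has no model of the spread between mice. It called all 3 members in 3 copies, with Cbr3 at 0.40, and 0 of 4 in 2 copies, and among the 142 pathway genes 8 as higher (5.63%) and 1 as lower (0.704%), against 2.90% and 2.66% of all genes. Wrb passed under every alternative run. Cbr1 kept its rise of 0.39 with all rows tested, named or not, but not its call (adjusted p = 0.0600), and did not pass at 0.01 (adjusted p = 0.0321). Cbr4 turned to 0.00361 with array weights.

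Without 1 array, the log2 fold change ranged from 0.36 to 0.45 for Cbr1, 0.33 to 0.48 for Cbr3, -0.0436 to 0.0184 for Cbr4, 0.41 to 0.44 for Wrb, -0.0150 to 0.0420 for Camlg, -0.0563 to 0.0225 for Asna1 and 0.0395 to 0.0842 for Get4. Differences ranged from -0.0994 to 0.0779 for Cbr1 minus Cbr3, -0.0639 to 0.0120 for Cbr1 minus Wrb, -0.10 to 0.0524 for Cbr3 minus Wrb, 0.36 to 0.45 for Cbr1 minus Cbr4, 0.32 to 0.52 for Cbr3 minus Cbr4, 0.38 to 0.44 for Wrb minus Camlg, 0.40 to 0.49 for Wrb minus Asna1 and 0.34 to 0.39 for Wrb minus Get4. Small differences of other genes turned sign as well, with array weights for Bag6 (-0.00247), Sgta (0.0223) and Chaf1b (0.0156), and for Chaf1b also with median centring (0.00411) and quantile normalization (0.00637). Without 1 array they ranged across 0 for Bag6 (-0.00983 to 0.0279), Sgta (-0.0368 to 0.0307), Chaf1b (-0.0324 to 0.0361), Cldn14 (-0.00573 to 0.0855), Lca5l (-0.00514 to 0.0122) and Oxa1l (-0.0939 to 0.00256). The cause was not tested.

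Genotypes share replicate numbers 1 to 5, and deviations of same-numbered mice correlated with r over 0.1 for 4 of 5 numbers (0.0313 for number 4, up to 0.507), and 7 of 10 mice correlated best with their own number, a hint from the data and not from the design. The labels tie no number to a litter or day, so the numbers are not taken as pairs. With the replicate block, 76 transcript clusters were called, 63 of them shared, Cbr3 (0.40, adjusted p = 0.0301) passed, and Wrb ranked 8 by p. In the exact sign-flip test of the block, whose smallest p is 0.0625, Cbr1 minus Cbr4 (0.40), Wrb minus Camlg (0.42), Wrb minus Asna1 (0.45) and Wrb minus Get4 (0.37) did not pass (adjusted p = 0.10).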
